A study of Mus musculus with 8 samples.

Results

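The Kif genes encode most of the kinesins, motor proteins that walk along or take apart microtubules. They were taken as every gene of the count tables whose symbol is Kif followed by a digit. This gave 36 genes of the 18141 in the tables, 36 of the 17836 in one table and 35 of the 15769 in the other, which has no Kif27. One of the 36, Kif1bp, encodes a protein that binds kinesins and is not a motor. Kif20b was singled out for description because its higher level in one set of these same knockout libraries, GTE below, was already known. Its fold changes and p-values in those libraries are therefore a description and no test.

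The cells came from frontal isocortex of mice at postnatal day 7 and were sorted by flow cytometry for one of 2 reporters. In the first sort the reporter was Drd1a-tdTomato, here D1Tom, and in the second it was golli-τ-eGFP, here GTE. All mice carried Foxp2 flox/flox. Control littermates had no Cre, and Emx1-Cre was present in the conditional knockouts, here cKO. It acts in the dorsal forebrain lineage that gives rise to cortical excitatory neurons and glia. Each sort had 2 control and 2 cKO libraries, named control 1, control 2, cKO 1 and cKO 2, and values below stand in that order. The D1Tom libraries were female except cKO 2, and the GTE libraries male except cKO 2. Control 1 and cKO 1 of D1Tom were prepared on one day and control 2 and cKO 2 on another. For GTE the labels repeat this text with sexes that do not match the GTE mice, so its preparation days are unknown. The Drd1a-tdTomato reporter is a transgene on a bacterial artificial chromosome, and neither sort is limited to one cell type, as the cell types below show. The labels do not say how many mice went into a library, so p-values measure the spread between libraries.

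Kinesins fall into 2 broad groups by use. In dividing cells, one group builds the spindle, moves and compacts chromosomes, and completes the separation of the daughter cells, and its genes are switched on late in the cell cycle. The other carries vesicles, mitochondria and other cargo out along axons and dendrites, or serves cilia and endosomes, and works in neurons and other cells that no longer divide. The cortex at this age holds few dividing neuronal progenitors but many dividing glial precursors.

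The promoters of the division kinesins are shown first, because genes of this group are known to share a short element, the cell cycle genes homology region (CHR), that is bound by repressor and activator complexes of the cell cycle. Each sequence runs 5′ to 3′ from 50 bases before to 20 bases after the RefSeq start site on GRCm38.p6. Capitals mark matches on either strand to TTTGAA (CHR), to CCAAT, or to TTTCCCGC and TTTGGCGC (E2F sites). The first 6 belong to genes found below to be high in dividing cells, and Kif5c is a neuronal transport motor shown for contrast.
Kif20b, chr19:34922308-34922377, plus strand: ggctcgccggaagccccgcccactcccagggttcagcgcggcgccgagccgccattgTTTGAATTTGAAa
Kif11, chr19:37376332-37376401, plus strand: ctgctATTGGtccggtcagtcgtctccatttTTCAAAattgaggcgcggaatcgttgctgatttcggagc
Kif15, chr9:122951031-122951100, plus strand: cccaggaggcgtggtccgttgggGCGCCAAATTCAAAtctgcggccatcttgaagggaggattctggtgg
Kif23, chr9:61946780-61946849, minus strand: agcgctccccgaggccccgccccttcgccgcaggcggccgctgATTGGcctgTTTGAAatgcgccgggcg
Kif22, chr7:127042401-127042470, minus strand: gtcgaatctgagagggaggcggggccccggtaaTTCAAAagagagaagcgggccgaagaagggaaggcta
Kif18a, chr2:109280688-109280757, plus strand: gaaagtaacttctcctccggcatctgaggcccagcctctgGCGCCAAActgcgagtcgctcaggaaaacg
Kif5c, chr2:49619236-49619305, plus strand: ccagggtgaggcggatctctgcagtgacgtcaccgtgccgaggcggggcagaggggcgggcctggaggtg

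Kif20b held 2 CHR matches side by side, beginning 8 and 14 bases after the start site. Kif11 and Kif15 each held one beginning at -19, Kif22 one at -17, and Kif23 one 3 bases after the start. In Kif15 the CHR match directly followed an E2F match. Kif18a had an E2F match and no CHR match in its whole promoter window. RefSeq promoters reaching from 250 bases before to 50 after the start were found for 29 of the 36 genes. The CHR letters were present in 9 of 10 genes of the division-associated class defined below (90.0%), which had 10 promoters. They were in 2 of 22 promoters of 18 other Kif genes (9.09%), and in 17.9% of all 32851 promoters. By gene, the shares were 11.1% of the other Kif genes and 20.2% of all genes. Counting only matches that began from 50 bases before to 20 after the start, there were 7 of 10 division-associated genes, 2 of 18 other genes (Kif1a and Kif26b), and 3.87% of all promoters. CCAAT was present in 6 of 10, 7 of 22 (31.8%) and 37.4% of the same promoter sets, and either E2F site in 2 of 10, 0 of 22 and 1.56%. These are matches of letters and no measurement of binding.

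The D1Tom libraries held 2395 to 3206 cells and 27323298 to 36379194 counts, and the GTE libraries 1440 to 3948 cells and 4878370 to 6092396 counts. Between libraries of a sort, 97 D1Tom and 63 GTE cell barcodes were shared. Foxp2, the targeted gene, was at 36.3, 39.1, 26.5 and 19.4 CPM (counts scaled to a library total of 1000000) in D1Tom, lower in both cKO libraries than in both controls, and at 9.52, 46.9, 25.4 and 7.43 CPM in GTE, where the groups overlapped. GTE cKO 1 stood apart from the other GTE libraries. It had the fewest and deepest cells, with a median of 2982 counts against 1085.5 to 1268. Oligodendrocyte precursor-like cells made up 24.2% of it against 2.86% to 5.05%, an unnamed cluster led by F3, Htra1 and Cldn10 made up 35.3% against 2.15% to 3.67%, and dividing cell-like cells 6.67% against 1.63% to 2.60%. Haemoglobin and related red cell genes summed to 2306 CPM in GTE control 1 and 5384 CPM in cKO 2, but to 0.205 and 0 CPM in control 2 and cKO 1, so a cluster led by these genes was given no name. Results from GTE are therefore given with each library's value, and the difference between genotypes in the division-associated genes also without cKO 1.

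Dividing cells were defined as those with at least 1 count of Top2a, a topoisomerase that untangles chromosomes, and at least 1 of Mki67, which coats mitotic chromosomes. Other cells were those with neither, and cells with counts of one of the genes alone were in neither set. In D1Tom the dividing cells were 150, 254, 151 and 270 cells, or 4.68%, 10.6%, 5.37% and 8.76% of the libraries. Of the dividing cell-like clusters 71.4% of cells met the definition, at a median of 10221.5 counts, and of upper layer excitatory-like neurons, which do not divide, 0.314% (2 of 638, median 21348). Other neuron types ran from 0 of 142 layer 6 corticothalamic-like cells (median 2696.5) to 14 of 217 Cajal-Retzius-like cells (6.45%, median 14979). Interneuron-like cells stood at 0.881% and layer 5 pyramidal tract-like cells at 2.21%. The definition thus also took in some cells of clusters named as neurons. A Kif gene was called division-associated where its CPM in dividing cells was at least 2-fold that in the other cells (log2 ratio of 1 or more, with 1 CPM added to each) in all 4 D1Tom libraries. This took 11 of the 36 Kif genes (30.6%), beside 567 of 14205 genes in all (3.99%). The other class held 24, and Kif27, too low to place, stayed unclassed.

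The 11 covered the whole course of mitosis. Kif11, which pushes the spindle poles apart, was at 165, 70.0, 148 and 83.8 CPM in the dividing cells of the 4 D1Tom libraries and at 2.08, 2.55, 2.33 and 4.37 CPM in the others. Kif15, which can stand in for Kif11, had log2 ratios of 5.87, 4.32, 5.27 and 4.46. Kif18a and Kif18b, which trim the plus ends of spindle microtubules, Kif2c, a microtubule depolymerase that corrects faulty chromosome attachments, and Kif22 and Kif4, which bind chromosome arms, were also in this class. So were the cytokinesis motors Kif20a, Kif20b and Kif23 of the kinesin-6 family, and Kif14. Kif23, a part of centralspindlin, had ratios of 5.40, 4.07, 5.66 and 4.21, and Kif20b, which acts late in cytokinesis, 5.03, 4.23, 4.94 and 3.87. For all 11 the ratio was higher in both libraries of the first preparation day than in both of the second, and the order of the days was the same in either genotype.

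The lowest log2 ratios inside the class were those of Kif22, at 2.45, and Kif18b, at 2.82, both well above the limit of 1. Just outside was Kif24, a motor of the mother centriole, with ratios of 0.91, 1.65, 1.03 and 1.82. Kif24 joined the class when at least 2 counts of both genes were asked for, or without control 1. The next gene, Kif13b, had a lowest ratio of 0.30, so the gap between the classes was wide apart from Kif24.

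**Figure D1:**
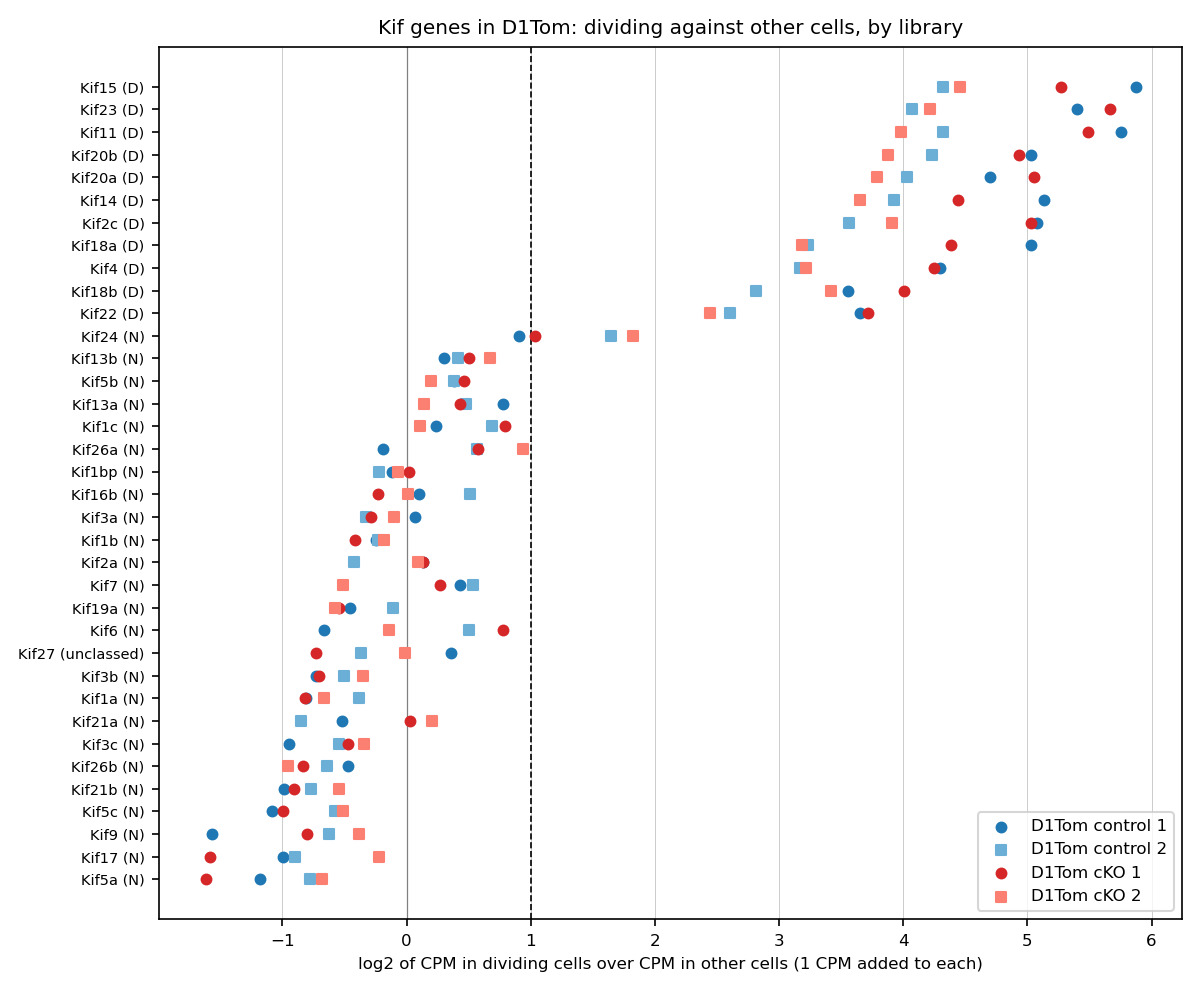
Log2 ratio of CPM in dividing cells (at least 1 Top2a and 1 Mki67 count) to CPM in cells with neither, with 1 CPM added, for each of the 36 Kif genes in each of the 4 D1Tom libraries; D marks the division-associated class and N the other, and the dashed line is the limit of 1. The 11 division-associated genes lie at 2.45 or above in every library, and Kif24 straddles the line.

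The neuronal motors had the opposite or no difference. Kif5a, a kinesin-1 heavy chain made chiefly by neurons, had log2 ratios of -1.18, -0.78, -1.62 and -0.68. Kif1a, which carries synaptic vesicle precursors, had -0.81, -0.38, -0.82 and -0.66, and Kif5c, another neuronal kinesin-1, -1.08, -0.57, -0.99 and -0.52. Kif5b, the kinesin-1 of most cell types, was slightly higher in dividing cells, at 0.38, 0.39, 0.47 and 0.20.

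The same measure was taken in the GTE libraries, which took no part in setting the classes. They held 3, 11, 50 and 23 dividing cells, and control 1, with 3, was left out. Dividing and other cells were compared by edgeR with the library as a block, and 222 of 10644 genes were higher in dividing cells (2.09%), and 357 changed in either direction (3.35%). Of the division-associated genes 9 had enough counts to enter the fit, while Kif14 and Kif18b were too low. These 9 entered it mainly through their dividing cells and so had to differ, and their values are a description and no test of the class. Kif23 was at 53.8, 118 and 124 CPM in the dividing cells of control 2, cKO 1 and cKO 2, against 0.211, 2.498 and 0.767 CPM in the other cells. Kif20b was at 197, 279 and 176 CPM against 1.06, 7.50 and 6.14 CPM. The log2 difference ran from 4.39 (SE 0.65) for Kif22 to 6.32 (SE 0.56) for Kif15, with Kif20b at 5.08 (SE 0.50).

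Kif24, which entered the fit in the same way, stood 4.48 higher in dividing GTE cells (SE 1.16). Kif5c was lower, by a log2 difference of -1.55 (SE 0.44, edgeR adjusted p 0.0170), a call kept in 3 of 5 alternatives. Kif1a stood at -1.12 (SE 0.43) with an edgeR adjusted p of 0.157.

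The dividing cell-like cells of D1Tom, of which 71.4% met the definition by Top2a and Mki67, formed 2 clusters, one led by Hist1h2ap, Cks2 and Hmgb2 and one by Ccnb1, Cenpa and Birc5, genes of the end of the G2 phase and of mitosis. Kif20b was higher in the second in all 4 libraries, at 133, 105, 143 and 89.9 CPM against 103, 66.2, 73.4 and 50.6 CPM. Kif22 was likewise higher in all 4, Kif11 in 3 and Kif15 in 1. The clusters were made from these same cells and genes, so this is a description.

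Genotypes were compared first in D1Tom, with counts summed over all cells of a library. A level in such a sum cannot tell more cells of a type from more RNA per cell. No Kif gene passed edgeR's threshold of 0.05 for the adjusted p, nor did any of the 14508 genes tested (0% called). At an unadjusted p under 0.05 there were 2 Kif genes and 320 genes in all (2.21%), and DESeq2 called 0 Kif genes and 25 genes in all. With the replicate number as a block, which in D1Tom stands for the preparation day, edgeR called 0 Kif genes and 1 gene in all.

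The division-associated genes leaned to one side. All 11 had a positive log2 fold change, from 0.125 to 1.03 with a median of 0.232, where the median of all genes was -0.00757. When 1 library was left out the median ran from 0.147 to 0.388, and without cKO 2 the fold change was positive for 8 of the 11. Both cKO libraries lay above both controls for 6 of the 11, as they did for 9.56% of all genes. Kif11 was at 13.4, 13.5, 17.1 and 18.7 CPM (log2 0.48, SE 0.19). The Kif11 controls lay close together, with both cKO libraries above them. Kif18b was at 0.990, 1.42, 2.65 and 2.12 CPM (log2 1.03, SE 0.39), the largest fold change of the class at the lowest level. Kif20a was at 2.97, 3.53, 4.10 and 4.90 CPM (log2 0.54, SE 0.32). For each of these 3 the edgeR adjusted p was 0.998.

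Kif20b was at 9.57, 8.62, 10.3 and 9.22 CPM in D1Tom, and its groups overlapped (log2 0.17, SE 0.18). Kif15 and Kif22 overlapped as well, at 10.3, 11.6, 9.63 and 14.6 CPM and at 12.3, 11.6, 12.04 and 13.3 CPM, as did Kif2c (log2 0.19) and Kif4 (log2 0.22). Kif23 did not overlap, at 11.6, 10.3, 12.5 and 12.7 CPM (log2 0.27, SE 0.18), nor did Kif14 (log2 0.12) and Kif18a (log2 0.27).

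Summed over the 11 genes, the level was 83.04, 82.02, 92.3 and 99.5 CPM. Top2a and Mki67 together moved with it, at 80.0, 90.1, 93.0 and 102 CPM, so that the ratio of the sums was 1.04, 0.91, 0.992 and 0.977. By preparation day, 9 of the 11 were higher in cKO 1 than in control 1 and 11 of 11 higher in cKO 2 than in control 2, with log2 ratios of the sums of 0.153 and 0.279. Of the dividing cell markers fixed for cell typing, 5 of 7 lay above, summing to 362, 344, 461 and 469 CPM with none at 0. Astrocyte markers lay above for 5 of 8, summing to 2927, 3023, 3217 and 4250 CPM, and oligodendrocyte precursor markers for 4 of 7, summing to 1082, 769, 1106 and 1008 CPM, with none at 0. Each of the other marker lists had at most 3 members above. Upper layer excitatory markers lay below both controls for 5 of 7, summing to 2575, 2845, 2262 and 1877 CPM. Upper layer excitatory-like cells made up 7.58%, 9.90%, 3.45% and 1.98% of the libraries. Layer 6b or subplate markers lay below for 3 of 6 and Cajal-Retzius markers for 3 of 7, and each remaining list had at most 2 below. The part of these lists in the result was not tested.

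Counted over dividing cells alone, the lean was not there. Of the 11 genes 3 had a positive fold change, with a median of -0.0629, and edgeR called 0 of 31 Kif genes and 0 of 12095 genes (0%), with 1 Kif gene, Kif21a, at an unadjusted p under 0.05 and 0 Kif genes called by DESeq2. With the preparation day as a block edgeR still called 0 Kif genes in dividing cells, but 101 of 12095 genes (0.835%), and without control 1 or control 2 it called 100 and 26 genes and again 0 Kif genes. Kif20b was at -0.16 (SE 0.41) and Kif11 at 0.06 (SE 0.41). In cells with neither Top2a nor Mki67 counts, 7 of the 10 division-associated genes that could be tested were positive, with a median of 0.210. There edgeR called 0 of 35 Kif genes and 0 of 14246 genes (0%), with 0 Kif genes at an unadjusted p under 0.05 and 0 by DESeq2. The share of dividing cells was 7.64% ± 4.19 in controls and 7.07% ± 2.40 in cKO (SD, n = 2), a difference of -0.578 percentage points (two-sided exact permutation p 1.0, where 0.333 is the smallest that 2 against 2 allows). The preparation days differed more in this share than the genotypes did. Median depth was 8130.5, 12815, 7215 and 7198 counts per cell, and for cells with both genes the sign of the difference changed with depth. Thinned to 500 counts, 0.218%, 0.167%, 0.427% and 0.227% of cells met the definition (7, 4, 12 and 7 cells), with cKO 0.134 percentage points higher (two-sided exact permutation p 0.333). For cells with either gene the sign did not change, at -0.74 percentage points as deposited and -0.6145 thinned. The dividing cell-like clusters held 5.65%, 5.68%, 5.94% and 6.43% of the libraries, both cKO libraries above both controls. For cells with both genes, leaving out 1 library moved the difference as deposited between -3.54 (without control 1) and 2.39 percentage points (without control 2).

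**Figure D2:**
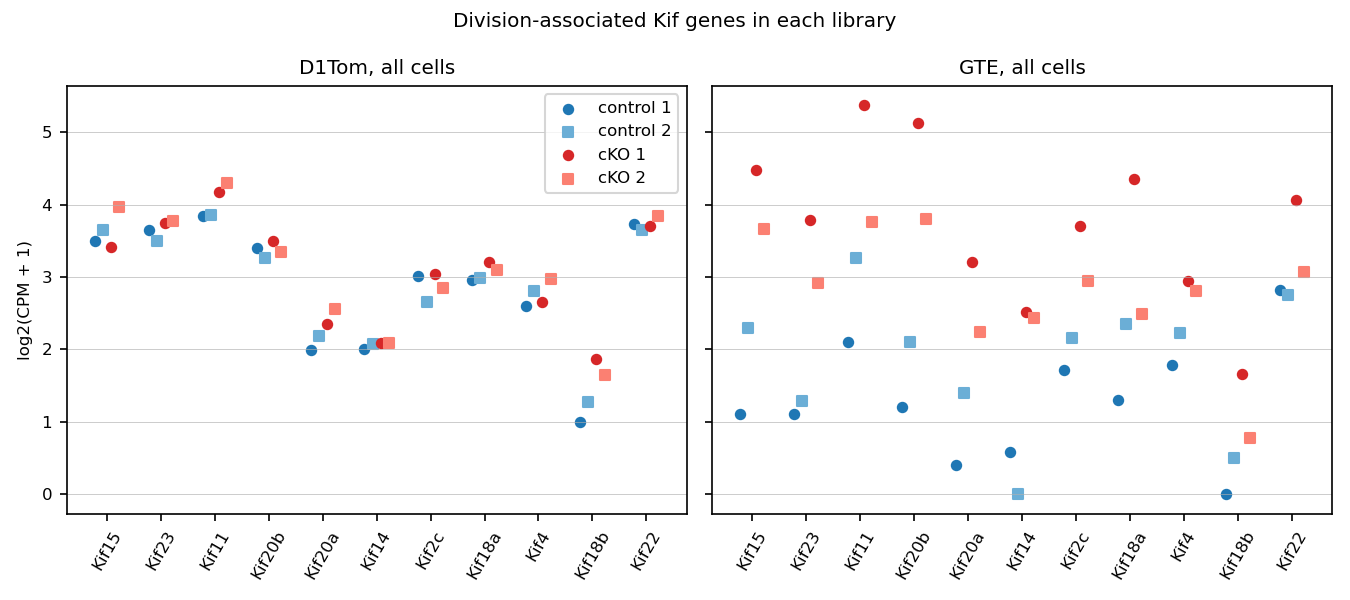
Level of the 11 division-associated Kif genes over all cells, as log2(CPM + 1), in the 4 libraries of each sort, blue for controls and red for cKO, circles for replicate 1 and squares for replicate 2. In D1Tom the libraries lie close together, and in GTE both cKO libraries lie above both controls for all 11 genes.

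The other class, which holds the transport motors and also Kif1bp, the depolymerase Kif2a and the cilium and centriole genes, showed no common direction in D1Tom. Of its 24 genes 11 had a positive fold change, with a median of -0.0238 (7 of 24 and -0.0775 with library size in place of TMM factors). Leaving out control 1 gave 5 of 24 and leaving out control 2 gave 21 of 24. Both cKO libraries lay above both controls for 2 of them, Kif19a and Kif7, and below for 1, Kif3b, against 12.7% below among all genes. Kif1b, a carrier of mitochondria and synaptic vesicle precursors and the most abundant by counts, was at 487, 567, 529 and 530 CPM (log2 0.07, SE 0.21). Kif5b was at 266, 278, 268 and 266 CPM (log2 0.04, SE 0.17), and Kif5a at 159, 205, 177 and 167 CPM (log2 -0.02, SE 0.20). All 3 motors overlapped between genotypes, and their cKO libraries lay closer together than their controls.

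Kif1a was at 336, 514, 419 and 615 CPM and Kif5c at 269, 368, 296 and 359 CPM. For both, the libraries of the second preparation day were the higher in each genotype. Kif3b, a part of heterotrimeric kinesin-2, which serves cilia and axonal transport, was at 48.6, 66.2, 47.0 and 47.5 CPM, a log2 fold change of -0.22 (SE 0.22, edgeR adjusted p 0.998). Kif19a, which limits the length of cilia, was at 1.37, 1.501, 2.51 and 1.57 CPM, a log2 fold change of 0.55 (SE 0.37, edgeR adjusted p 0.998). By preparation day, 19 of the 24 were higher in cKO 1 than in control 1, but 6 of 24 in cKO 2 than in control 2, so the 2 days did not agree.

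The other genes of this class ranged widely in level. Kif21b, which limits microtubule growth, was at 147, 177, 153 and 142 CPM, and Kif2a, a microtubule depolymerase of growing axons, at 147, 176, 149 and 144 CPM. Kif3a, the partner of Kif3b, was at 94.7, 78.5, 90.0 and 63.5 CPM and Kif3c, their neuronal relative, at 78.04, 83.3, 82.2 and 77.8 CPM. In all 4 the groups overlapped. Kif7, which acts in Hedgehog signalling at the cilium, was at 3.68, 2.70, 4.37 and 4.28 CPM (log2 0.51, SE 0.29), with both cKO libraries above. Among the lowest were Kif6 and Kif9, motors of motile cilia, Kif17, Kif24 and Kif27, which lay between 0.1098 CPM (Kif6 in cKO 2) and 4.21 CPM (Kif9 in control 1) and overlapped between genotypes.

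In GTE the division-associated genes were higher in both cKO libraries. For all 11 both cKO libraries lay above both controls, as they did for 18.4% of all genes. Of these, 10 could be tested, with log2 fold changes of 0.481 to 3.58 and a median of 1.96, where the median of all genes was -0.0468. Without cKO 1 all 10 were still positive, with a median of 1.61. One passed: Kif20b was the 1 Kif gene of 30 tested that edgeR called, among 4 of 12042 genes in either direction (0.0332%) and 1 upward (0.00830%). At an unadjusted p under 0.05 there were 7 Kif genes, all division-associated, beside 629 genes in all (5.22%). This count was 4 Kif genes without cKO 1 and 4 without control 1 (123 and 356 genes in all), 10 without control 2 (920) and 13 without cKO 2 (1467).

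Kif20b was at 1.31, 3.28, 34.1 and 12.9 CPM, from 8, 16, 173 and 73 counts. The mean was 2.30 ± 1.39 CPM in controls and 23.5 ± 15 CPM in cKO (SD, n = 2), and cKO 1 was the highest. Kif20b rose by a log2 fold change of 2.91 (SE 0.63, edgeR adjusted p 0.0322). Because Kif20b was picked for its rise in these same libraries, this p-value is a description and no test. The call was lost without control 1 (log2 2.53, edgeR adjusted p 1.00), without control 2 (3.47, 0.124) and without cKO 1 (2.54, 0.956), and kept without cKO 2 (3.20, 0.00445). It was also lost with DESeq2 (2.93, adjusted p 0.140) and with library size in place of TMM factors (3.36, edgeR adjusted p 0.161).

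The other members of the class did not pass. Kif14, a cytokinesis motor, was at 0.492, 0, 4.73 and 4.42 CPM, a log2 fold change of 3.58 (SE 1.04) with an edgeR adjusted p of 0.427. Kif15 was at 1.15, 3.90, 21.3 and 11.7 CPM, with a log2 fold change of 2.34 (SE 0.64) and 0.269 for the edgeR adjusted p. For Kif23 the levels were 1.15, 1.44, 12.8 and 6.54 CPM, the fold change 2.44 (SE 0.74) and the edgeR adjusted p 0.596. In all 3 the lower cKO library, cKO 2, was still at least 2-fold above the higher control.

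Kif11 was at 3.28, 8.61, 40.4 and 12.6 CPM (log2 1.70, SE 0.57), Kif18a at 1.48, 4.10, 19.5 and 4.60 CPM (log2 1.62, SE 0.66) and Kif20a at 0.328, 1.64, 8.28 and 3.71 CPM (log2 2.22, SE 0.84). Here cKO 1 stood above all others, and for Kif18a cKO 2 was near control 2. Without cKO 1 the log2 fold changes were 1.142 (SE 0.71) for Kif11, 0.79 (SE 0.94) for Kif18a and 1.99 (SE 1.19) for Kif20a. The smallest differences were those of Kif4, at 2.46, 3.69, 6.71 and 6.01 CPM (log2 0.70, SE 0.70), and Kif22, at 6.07, 5.74, 15.8 and 7.43 CPM (log2 0.48, SE 0.59). Kif2c was at 2.30, 3.49, 12.0 and 6.72 CPM (log2 1.27, SE 0.67). Kif18b, at 0, 0.410, 2.169 and 0.707 CPM, was too low to test. Exons of Kif18a, Kif20a, Kif22 and Kif4 overlap a gene on the opposite strand (Mettl15, Cdc23, Gm31749 and Pdzd11), and whether the counting used strand is not given in the sources used here. The exons of Kif20b (chr19:34922361-34975745, GRCm38, plus strand) overlap those of no other gene.

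**Figure D3:**
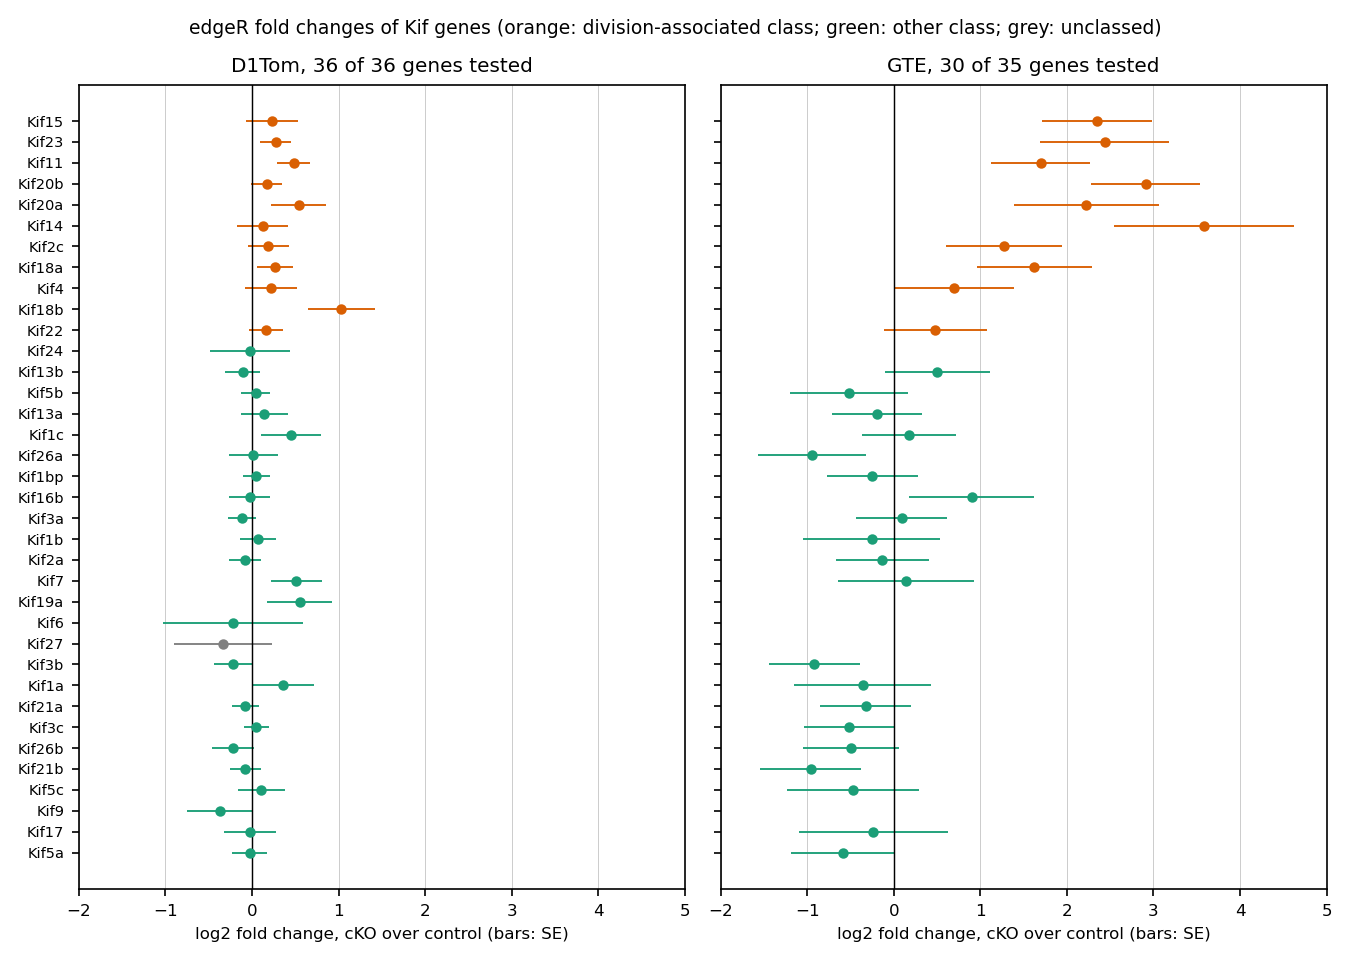
Log2 fold change of cKO over control from edgeR for each Kif gene tested in D1Tom (36) and GTE (30), ordered by the ratio of dividing to other cells. Bars are standard errors calculated back from edgeR's F statistic. In D1Tom the points lie near 0, and in GTE the 10 division-associated genes tested lie to the right, from 0.481 to 3.58.

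The rise of Kif20b in GTE came together with other signs of division. The 11 genes summed to 20.0, 36.3, 178 and 77.3 CPM, and Top2a and Mki67 to 17.1, 30.8, 139 and 87.5 CPM, so that the ratio of the sums was 1.17, 1.18, 1.28 and 0.883. All 8 dividing cell markers lay above in both cKO libraries, summing to 234, 193, 874 and 431 CPM with none at 0. Markers of oligodendrocyte precursors summed to 1205, 1375, 4408 and 1670 CPM, with 3 of 7 above, and markers of microglia to 24.5, 65.6, 285 and 71.8 CPM, with 4 of 6 above. Markers of Cajal-Retzius cells summed to 14.6, 46.5, 103 and 73.7 CPM, with 6 of 7 above and Lhx5, Trp73, Lhx1 and Ebf3 at 0 in at least one library, and markers of oligodendrocytes to 220, 430, 2566 and 319 CPM, with 1 of 8 above. Each of the other lists had at most 2 members above. Of the upper layer excitatory and of the layer 5 pyramidal tract markers 3 of 7 lay below, and of each remaining list at most 2. The part of these in the result was not tested.

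Cells with both Top2a and Mki67 counts were 0.0760% (exact binomial 95% interval 0.0157 to 0.222), 0.358% (0.179 to 0.640), 3.47% (2.59 to 4.55) and 0.787% (0.499 to 1.18) of the GTE libraries, where intervals cover counting error only. In mature oligodendrocyte-like cells, which do not divide, there were 0 of 180, a count that still permits up to 1.67% (3 counts of the total), at a median of 2303 counts. Of dividing cell-like cells of GTE only 24.5% (76 of 310) had both, at a median of 2767 counts, so these shares miss many such cells. The mean share was 0.217% ± 0.200 in controls and 2.13% ± 1.90 in cKO (SD, n = 2), 1.91 percentage points apart (two-sided exact permutation p 0.333, the smallest possible), and 0.570 apart without cKO 1. The share of cells with either gene was 1.09%, 1.43%, 9.03% and 2.60%, and 0.283%, 0.632%, 4.10% and 1.31% after thinning each cell to 500 counts, which left out 58, 63, 1 and 21 shallower cells. Both cKO libraries were above both controls at either depth.

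Kif20b was counted in 4, 6, 51 and 23 GTE cells, or 0.101%, 0.195%, 3.54% and 0.787% of each library, against 1 of 180 oligodendrocyte-like cells (0.556%, exact binomial 95% interval 0.0141 to 3.06). This interval holds the shares of both controls and of cKO 2 and overlaps that of cKO 1 (2.65 to 4.63). Overlap of intervals is no test, and a reference of 1 positive cell is too small to place any library. In the unnamed GTE clusters with at least 30 cells in each library, the share was at most 0.209% (5 of 2389, interval 0.068 to 0.488). The interval of cKO 2 was 0.499 to 1.18. Those clusters had medians of 719.5 to 2286 counts and came from the same libraries, so this is a description. At 500 counts per cell the library shares for Kif20b were 0.0771%, 0.133%, 0.973% and 0.345%. Of its counts, 1 of 8, 11 of 16, 143 of 173 and 46 of 73 lay in the dividing cell-like cluster, which held 88, 50, 96 and 76 cells. The largest count in any one cell was 12, against totals of 173 and 73 in the cKO libraries. Outside that cluster and outside all cells with Top2a or Mki67, 7, 5, 20 and 25 counts were left.

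**Figure D4:**
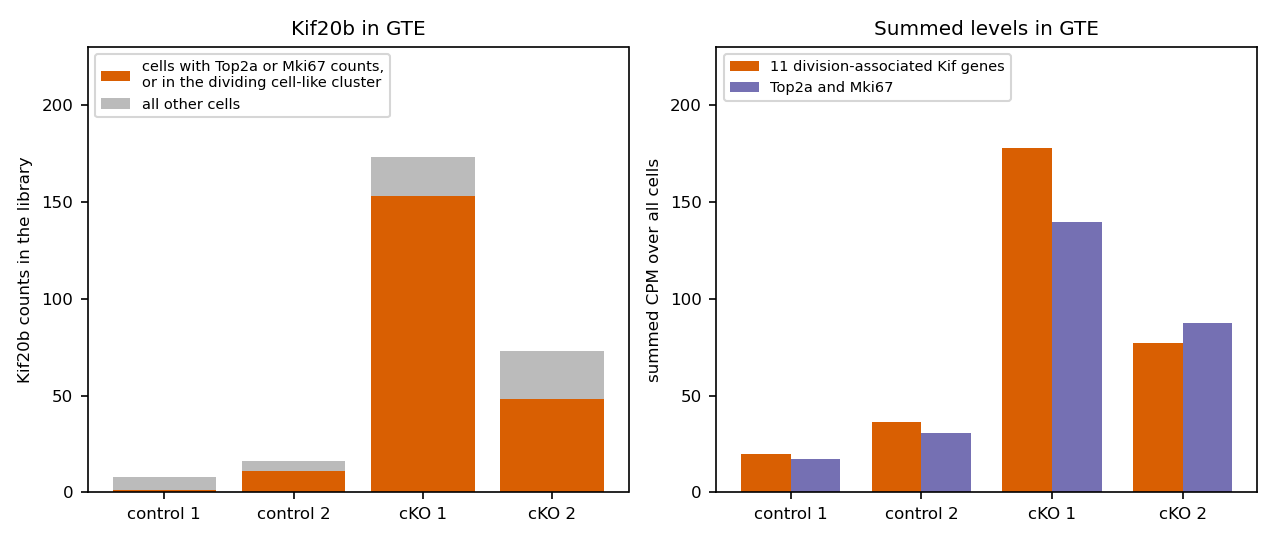
Left, Kif20b counts in each GTE library, split into cells with Top2a or Mki67 counts or in the dividing cell-like cluster (orange) and all other cells (grey). Right, summed CPM of the 11 division-associated Kif genes (orange) and of Top2a and Mki67 (purple), where the 2 sums follow the same order of libraries, from 20.0 and 17.1 in control 1 to 178 and 139 in cKO 1.

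Within the dividing cell-like cluster of GTE, Kif20b was at 5.90, 80.9, 279 and 146 CPM, a log2 fold change of 2.166 (SE 0.76, edgeR adjusted p 0.895). Kif15 and Kif23 had fold changes of 1.59 (SE 0.64) and 1.78 (SE 0.72) there, with the same edgeR adjusted p of 0.895. Of the 9 division-associated genes tested there 8 had a positive fold change, with a median of 1.38. In the other class 2 of 13 did, with a median of -0.547. edgeR called 0 Kif genes and 0 of 4867 genes in all. At an unadjusted p under 0.05 there were 4 Kif genes, 3 of them division-associated, and 225 genes in all. The cells of this cluster had medians of 1308, 2113.5, 4718.5 and 2636 counts, and so were deepest where Kif20b was highest.

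In GTE cells with neither Top2a nor Mki67 counts, Kif20b was at 1.19, 1.06, 7.50 and 6.14 CPM, a log2 fold change of 2.20 (SE 0.83, edgeR adjusted p 1.00). Both cKO libraries were again above both controls. Cells with neither gene still held part of the dividing cell-like cluster, of which 53.2% (165 of 310) had a count of either gene. edgeR called 0 of 25 Kif genes in these cells and 1 of 11852 genes (0.00844%), with 1 Kif gene, Kif20b, at an unadjusted p under 0.05 and 0 called by DESeq2. Of the 6 division-associated genes tested there 4 had a positive fold change, with a median of 0.434. When the dividing cell-like cluster was left out too, a choice made after seeing the data, Kif20b stood at 1.70 (edgeR adjusted p 0.999).

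The difference between sorts was tested as an interaction of genotype and sort. For Kif20b it was 2.76 on the log2 scale (SE 0.55, edgeR adjusted p 0.941). edgeR called 0 of 14026 genes (0%) and 0 of 35 Kif genes. At an unadjusted p under 0.05 there were 5 Kif genes and 452 genes in all. DESeq2 called 1 Kif gene, Kif20b, at 2.75 with an adjusted p of 0.0231, among 5 of 15459 genes in all. The interaction uses the same GTE counts for which Kif20b was picked, so for this gene it is likewise a description. All 11 division-associated genes had a positive interaction, with a median of 1.44, where the median of all genes was -0.0335.

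The other class had no call in GTE. Of its 20 genes tested 5 had a positive fold change, with a median of -0.29, but 11 of 20, with a median of 0.0533, when library size took the place of TMM factors, so the direction of this class rests on the scaling. The division-associated genes were positive in 10 of 10 either way. Both cKO libraries lay above both controls in CPM for 4 of the 24 (Kif16b, Kif19a, Kif24 and Kif6, all under 8 CPM), and below for 3 (Kif3b, Kif5b and Kif9), against 7.36% below among all genes. Kif3b was at 32.5, 56.0, 26.4 and 30.6 CPM, a log2 fold change of -0.92 (SE 0.52, edgeR adjusted p 0.966), and was the 1 gene below in both sorts. Kif5b was at 282, 312, 241 and 278 CPM, a log2 fold change of -0.52 (SE 0.68, edgeR adjusted p 0.984).

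Some neuronal motors were lowest in the library that stood apart. Kif1a was at 590, 489, 264 and 721 CPM, Kif5c at 460, 480, 195 and 583 CPM, and Kif5a at 118, 182, 51.3 and 169 CPM. In each case cKO 1 was the lowest of the 4, and cKO 2 was above at least one control. Kif21b was also lowest in cKO 1, at 118, 189, 64.5 and 119 CPM, as were Kif3b and Kif5b above. Others did not follow. Kif1b was at 412, 739, 556 and 616 CPM and Kif3c at 29.1, 58.4, 40.6 and 35.4 CPM, both lowest in control 1. Kif2a, at 70.1, 93.7, 104 and 87.7 CPM, and Kif3a, at 51.5, 37.7, 90.3 and 45.4 CPM, were highest in cKO 1.

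Genes that work with the kinesins were counted in the same way, from lists of partners, and edgeR and DESeq2 called 0 in every list in both sorts. All 17 mitotic partners, such as Prc1 and Racgap1 of the spindle midzone and the Aurora kinases, had a positive fold change in D1Tom (median 0.302) and in GTE (median 1.19). In D1Tom 11 of the 17 lay above both controls, against 9.56% of all genes, and 3 had an unadjusted p under 0.05, against 2.21%. In GTE 17 lay above, against 18.4%, and 9 had an unadjusted p under 0.05, against 5.22%, a count of 3 without cKO 1 and 2 without control 2. Kinesin light chains and the kinesin-2 subunit Kifap3 were positive in 1 of 5 in D1Tom (median -0.0719) and 2 of 4 tested in GTE (median -0.318). Cargo adaptors were positive in 8 of 13 in D1Tom (median 0.0408) and 2 of 13 in GTE (median -0.453), and dynein and dynactin, the motor that runs the other way, in 11 of 17 (median 0.0519) and 4 of 17 (median -0.405). The minus-end kinesins of the Kifc group were positive in 4 of 4 in D1Tom (median 0.173) and 2 of 3 in GTE (median 0.194). The directions of the adaptors and of dynein and dynactin rest on the scaling. With library size in place of TMM factors adaptors were positive in 6 of 13 in GTE (median -0.134) and 5 of 13 in D1Tom (median -0.0211), and dynein and dynactin in 8 of 17 in each sort (medians -0.0317 in GTE and -0.00398 in D1Tom), while mitotic partners were positive in 17 of 17 in GTE and 16 of 17 in D1Tom. Of the lists other than the mitotic partners, 0 genes in D1Tom, and in GTE 1 minus-end kinesin and 1 adaptor, had an unadjusted p under 0.05.

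Levels over cell types showed where each motor was found, with cells of all 4 libraries of a sort pooled. Clusters were named from markers, and a fold is to all other cells of the sort with 1 CPM added. Kif19a, otherwise rare, was at 32.8 CPM in 123 oligodendrocyte-like cells of D1Tom, 14.6-fold higher than in all other cells, and at 32.4 CPM in those of GTE, 19.5-fold higher. In D1Tom it was present there in each library, at 19.4, 21.04, 41.7 and 38.8 CPM. In GTE the 2 controls were at 0 and the cKO libraries at 43.3 and 23.9 CPM, and the cell numbers were small, at 36, 37, 69 and 38. Kif1bp, the kinesin-binding protein, was also highest in oligodendrocyte-like cells, at 198 CPM (5.08-fold) in D1Tom and 334 CPM (5.81-fold) in GTE.

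Kif1c, a carrier of integrins and other cargo, had the largest fold of any Kif gene in astrocyte-like cells, at 64.7 CPM in D1Tom (2.88-fold) and 39.5 CPM in GTE (2.83-fold). In D1Tom its level was about the same in endothelial-like cells, at 65.4 CPM. Kif13a, an endosome motor, was at 50.3 CPM (2.05-fold) in oligodendrocyte precursor-like cells of D1Tom and at 53.4 CPM (2.02-fold) in those of GTE. Its highest levels were in unnamed clusters, at 76.0 CPM in a D1Tom cluster led by Tshz2, Ccl27b and Etv1 and at 103 CPM in a GTE cluster of 75 cells led by Pfkp, Snhg11 and Vip. The 4 D1Tom libraries lay close together for Kif13a in precursor-like cells, at 49.9, 47.8, 57.6 and 48.7 CPM. Kif13b, its close relative, was at 19.2 CPM in those of GTE (2.72-fold) and at 11.1 CPM in D1Tom (1.20-fold).

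Kif26a, an atypical kinesin without motor activity, was at 65.7 CPM in endothelial-like cells (5.21-fold) and 38.4 CPM in layer 5 pyramidal tract-like neurons (2.75-fold) of D1Tom. In those neurons, which have some of the longest axons of the cortex, Kif5a was at 369 CPM (2.19-fold), with 358, 359, 402 and 357 CPM in the 4 libraries, against 31.9 CPM in astrocyte-like cells. Kif21a, a motor that slows microtubule growth, was at 279 CPM in radial progenitor-like cells (3.17-fold), but this type held only 3, 2, 67 and 21 cells. Kif26b, the paralogue of Kif26a, was at 37.1 CPM in 21 Cajal-Retzius-like cells of GTE (2.39-fold), with control 1 and cKO 1 at 0.

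Dividing cell-like cells had the highest level of all 11 division-associated genes in both sorts. They also had the highest level of Kif24, which is outside the class, at 4.63 CPM in D1Tom and 15.9 CPM in GTE. These clusters were named from markers that include Top2a and Mki67. In D1Tom 71.4% of their cells met the definition that set the class, so this is a description and no test. Kif2c was at 65.1 CPM in dividing cell-like cells of D1Tom (19.1-fold) and Kif15 at 145 CPM in those of GTE (53.0-fold). The next highest cells were endothelial-like for 7 and microglia-like for 3 of the 11 in D1Tom, and microglia-like for 9 of the 11 in GTE. Kif4 was at 12.97 CPM in D1Tom microglia-like cells (2.09-fold), and Kif20a at 15.9 CPM in GTE microglia-like cells (4.11-fold). Kif1a, best known from neurons, was at 419 CPM in D1Tom microglia-like cells, where all other cells were at 464 CPM. The part of free RNA in such levels was not tested.

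**Figure D5:**
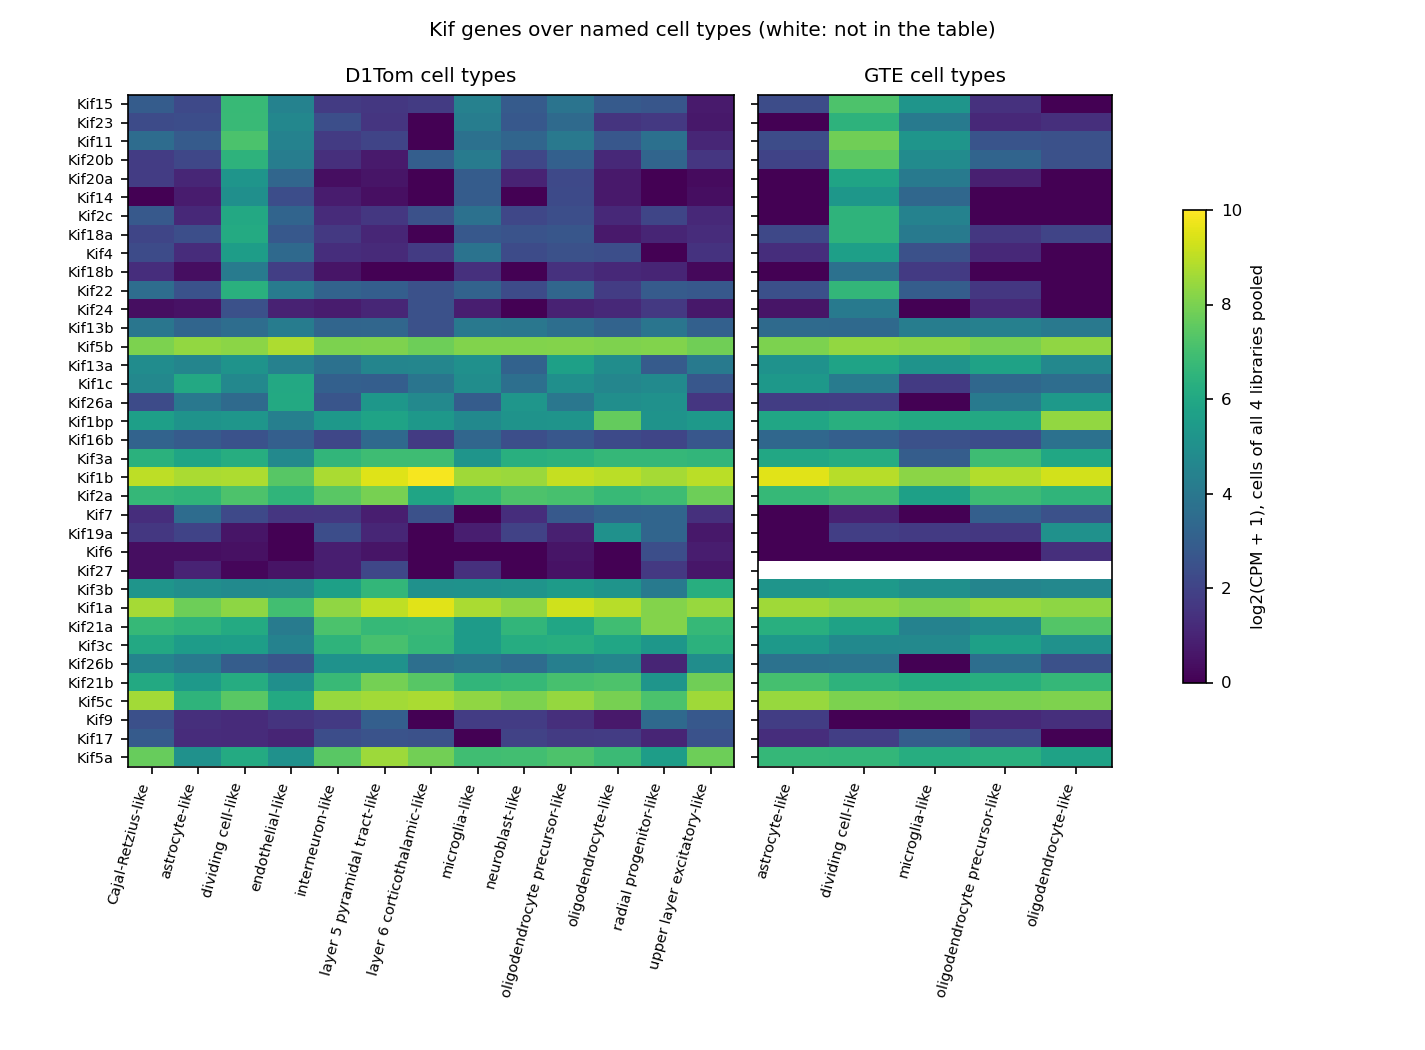
Level of each Kif gene as log2(CPM + 1) in the named cell types with at least 50 cells, D1Tom on the left and GTE on the right, genes ordered by the ratio of dividing to other cells, with white for Kif27 in GTE, which is not in that table. The upper block of division-associated genes is bright in dividing cell-like cells, and Kif19a and Kif1bp stand out in oligodendrocyte-like cells.

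Genotypes were then compared within each cell group that held at least 30 cells in each library. In 12 groups of D1Tom (7 named types and 5 unnamed clusters) edgeR called 0 of 260 tests of Kif genes. It called 74 of 125451 tests of all genes (0.0590%), and DESeq2 called 0 Kif tests. At an unadjusted p under 0.05 there were 9 Kif tests. Of these, 4 were in astrocyte-like cells, beside 1130 of 10445 genes in all, and 2 in dividing cell-like cells, beside 670 of 11026. There was 1 each in upper layer excitatory-like cells (297 of 11213) and in 2 unnamed clusters (344 of 9235 and 182 of 8988). In 9 groups of GTE (3 named types and 6 unnamed clusters) edgeR called 0 of 112 tests of Kif genes and 1 of 43903 (0.00228%). DESeq2 called 0 Kif tests. At an unadjusted p under 0.05 there were 5 Kif tests. Of these, 4 were in dividing cell-like cells, beside 225 of 4867 genes in all. The remaining 1 was in oligodendrocyte precursor-like cells, beside 194 of 7157.

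Astrocyte-like cells of D1Tom held 68 of the 74 calls (0.651% of 10445 genes). They also held 4 of the 9 Kif tests with an unadjusted p under 0.05, out of 20 Kif genes tested there, beside 1130 of the 10445 genes. Kif5c was at 41.7, 86.3, 101 and 156 CPM in these cells (log2 1.05, SE 0.30, edgeR adjusted p 0.156). Kif5a was at 14.99, 31.8, 42.9 and 44.8 CPM, a log2 fold change of 0.94 (SE 0.33, edgeR adjusted p 0.269). Both cKO libraries lay above both controls for both genes. With the preparation day as a block, Kif5c and Kif5a passed at edgeR adjusted p 0.00110 and 0.0440, beside 298 of 10445 genes in all (2.85%). Without control 2, Kif5c, Kif5a, Kif21b and Kif1a passed at edgeR adjusted p 0.000285, 0.00501, 0.0116 and 0.0127, beside 645 of 10632 genes in all (6.07%). All 4 are best known from neurons. Kif1a was at 219 CPM in astrocyte-like cells and 478 CPM in all other cells, and the part of free RNA in this was not tested.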

How the data were processed

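Sorted cells were sequenced with a 10x Genomics Chromium 3′ kit, per the labels. For either sort the authors' deposited file holds whole-number counts, genes by cells, that were not normalised. The submitters' processing notes name Cell Ranger 2.1.1, UMI-tools 0.5.4, STAR 2.5.2b, featureCounts (Subread 1.6.2) and the builds mm10 and GRCm38.p6. The deposited counts did not behave like plain molecules: the ratio of values of 2 to values of 1 ran from 0.307 to 1.69, so no Poisson interval was used. Counts at the 3′ end do not scale with gene length.

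Cells with at least 500 counts were clustered (2000 variable genes, 30 principal components, 20 neighbours, Leiden resolution 1, leidenalg 0.10.2) and named from marker lists. No doublet caller was run. Counts were summed per library and tested with edgeR 4.0.16 (quasi-likelihood, TMM, default filter, Benjamini-Hochberg adjustment at 0.05 over all genes tested), with DESeq2 1.42.0 as an alternative (R 4.3.3). An SE given with an edgeR fold change was calculated back from the test: the absolute log2 fold change divided by the square root of edgeR's F statistic. Scripts were tested on simulated data. D1Tom numbers pair the libraries because the labels give them shared batches, and paired libraries deviated together (correlation 0.500 over 14508 genes). GTE batches are unclear in the labels.

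The Kif genes, gene lists and tests were chosen with earlier results of these data known. Genes named with values were Kif20b, those called in any fit, the 5 highest of each class in D1Tom controls, the 3 highest and 3 lowest fold changes per sort whose groups did not overlap, and the leading gene of each cell type (2-fold, 10 CPM), beside examples added afterwards. Gene positions are from GENCODE M21.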

Additional observations from a re-analysis of the deposited data

How the results depend on the processing

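With 2 libraries a group, depth and library number limit every comparison, GTE most. The number of Kif genes called in GTE, 1 as reported, was 0 with DESeq2, with library size only and no TMM, with the replicate number as a block, without cells with any Top2a or Mki67 count, without the 1% of cells with the most counts, and, added after seeing the data, without cells with either count and the dividing cell-like cluster. It ranged from 0 to 1 when 1 library was left out. Kif20b stood at 2.90 with the block (edgeR adjusted p 0.674), and library size only moved the median of all genes from -0.047 to 0.377. Same-numbered GTE libraries deviated in opposite directions (correlation -0.348 over 12042 genes), and the labels do not pair them. The interaction had 1 Kif gene called with DESeq2 against 0. Over cell types of D1Tom the count was 2 with the block and ranged from 0 to 5 when 1 library was left out, and in GTE it ranged from 0 to 9 (3 without control 2, 9 without cKO 2), where the calls of all genes went from 1 to 369 and 2762. In D1Tom cell types calls of all genes went from 74 to 929 with the block and 1209 without control 2, and over all D1Tom cells from 0 to 25 with DESeq2. The difference in the share of dividing GTE cells, 1.91 percentage points, was 0.0692 at 500 counts per cell and 4.55 for cells with either gene. Without cells with Top2a or Mki67 counts, fold changes turned negative for Kif23 in D1Tom (-0.18, and -0.21 without the cluster too), for Kif22 in GTE (-0.77 and -0.84), for Kif4 in GTE (-0.56 and -0.91) and, without the cluster too, for Kif18a in GTE (-0.0915), in none of which had a test passed. The block changed no other call of a Kif gene. In D1Tom dividing cells the calls of all genes went from 0 to 101 with the block, and over all D1Tom cells from 0 to 1. The cause of these changes was not tested beyond the fewer cells or libraries of the alternatives.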
